A study of Mus musculus with 3 samples.

Results

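Mouse small intestinal organoids grown in the medium called ENR+CV yielded a population of cells in which mitochondrially encoded transcripts made up less than 4% of the unique molecular identifiers (UMIs, the counted RNA molecules). These low-mt ENR+CV cells were chosen by measured values, as the cells of the ENR+CV library with at least 1000 and under 8000 UMIs, at least 400 detected genes and under 4% of UMIs on the 33 mt- genes. They numbered 659 of the 985 ENR+CV cells that met the depth limits (66.9%, exact binomial 95% interval 63.9 to 69.8%) and of 5913 such cells in the whole series. Because the cells were selected on their mitochondrial share, that share describes the choice and is not a finding. The remaining 326 ENR+CV cells and the 2545 cells of the ENR library were the points of comparison.

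The study profiled organoids of small intestinal epithelium by Seq-Well, a microwell-array method that captures polyadenylated RNA of single cells on barcoded beads, after 6 days in one of 3 media. R-spondin 1 (500 ng/mL), Noggin (100 ng/mL) and EGF (50 ng/mL) were common to the 3 media and alone make up ENR, the conventional culture. ENR+CV added the GSK3 inhibitor CHIR99021 at 3 µM and valproic acid at 1 mM, and is the medium that holds organoids in a stem cell-enriched precursor state. ENR+CD combined CHIR99021 at 3 µM with the gamma-secretase inhibitor DAPT at 10 µM. Each medium was represented by 1 library, so the medium and the array cannot be told apart, and every interval given here covers counting error only. Cells were assigned to media by the column names of the table that merges the 3 libraries. The separate tables of ENR+CV and ENR+CD carried the opposite labels: all 1092 cells that the merged table names as ENR+CV were found, count for count, in the separate table labelled ENR+CD, and all 2506 named as ENR+CD in the one labelled ENR+CV. Every value given here for ENR+CV or ENR+CD depends on the names in the merged table, and ENR cells matched their own label. Under the same limits on genes and UMIs, the merged names leave as many ENR+CV cells as the study describes. Paneth antimicrobial genes took 21.7% of UMIs in the cells named ENR+CD, 0.665% in the low-mt and 0.854% in the other cells named ENR+CV, and 5.39% in ENR.

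In the crypt, Wnt ligands and Notch ligands presented by neighbouring Paneth cells keep stem cells undifferentiated. CHIR99021 stabilises beta-catenin, which enters the nucleus and acts with TCF/LEF factors on Wnt target genes. Valproic acid inhibits histone deacetylases and is used in this system to keep Notch signalling up. Notch cleavage releases an intracellular domain that acts with RBPJ on targets such as Hes1, a repressor of Atoh1, the factor that commits cells to the Paneth, goblet and enteroendocrine lineages.

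Levels below are CPM, the UMIs of a gene summed over the cells of a group and scaled to a common total without mt- genes, with exact Poisson 95% intervals. The totals were 2257604 UMIs for the low-mt ENR+CV cells, 570225 for the other ENR+CV cells and 4255347 for the ENR cells. A gene was called higher or lower when the groups differed at least 2-fold, their Poisson intervals were separate and at least 20 UMIs fell in the pair. Calls come without p-values, since the cells of a library do not replicate its medium.

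Sequences of 4 promoters are shown because they belong to genes on which the comparisons below turn: a Wnt target (Sp5), the protein-coding gene with one of the widest differences from ENR (Ifitm1), a gene given as a marker of the cells (Ass1) and a stem cell gene that differed from both other groups (Olfm4). Each is the 250 bases before the RefSeq gene start on GRCm38.p6, at chr2:70474673-70474922, chr7:140967826-140968075, chr2:31470020-31470269 and chr14:80000052-80000301, all on the plus strand. Capitals mark CTTTGA or CTTTGT, letters of the TCF/LEF core, and TGGGAA, letters of the RBPJ core, on either strand.
Sp5: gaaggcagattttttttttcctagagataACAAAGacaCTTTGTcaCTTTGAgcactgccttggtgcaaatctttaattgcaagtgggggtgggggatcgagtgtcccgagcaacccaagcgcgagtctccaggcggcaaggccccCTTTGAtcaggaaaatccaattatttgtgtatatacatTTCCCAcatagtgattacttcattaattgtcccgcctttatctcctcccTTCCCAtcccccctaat
Ifitm1: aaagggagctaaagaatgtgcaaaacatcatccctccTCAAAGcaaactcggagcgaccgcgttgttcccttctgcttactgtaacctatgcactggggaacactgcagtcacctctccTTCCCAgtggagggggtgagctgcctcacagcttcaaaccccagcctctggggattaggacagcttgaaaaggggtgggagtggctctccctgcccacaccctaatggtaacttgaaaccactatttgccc
Ass1: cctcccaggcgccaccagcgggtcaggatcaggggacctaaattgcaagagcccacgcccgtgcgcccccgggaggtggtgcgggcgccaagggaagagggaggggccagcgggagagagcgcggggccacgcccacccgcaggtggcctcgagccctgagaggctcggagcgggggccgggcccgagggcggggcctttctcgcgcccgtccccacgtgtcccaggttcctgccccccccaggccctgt
Olfm4: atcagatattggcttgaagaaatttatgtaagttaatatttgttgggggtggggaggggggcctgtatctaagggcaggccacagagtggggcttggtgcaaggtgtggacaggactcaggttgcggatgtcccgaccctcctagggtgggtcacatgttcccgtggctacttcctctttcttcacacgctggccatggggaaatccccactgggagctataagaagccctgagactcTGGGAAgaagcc
The Sp5 window held 4 TCF/LEF matches and 2 RBPJ matches, the Ifitm1 window 1 of each, the Olfm4 window 1 RBPJ match and the Ass1 window 0 of either. In all 32851 RefSeq promoter windows of this length, 27.6% held CTTTGA or CTTTGT and 21.6% held TGGGAA. Of the Wnt target genes called higher than in ENR, 6 had a window and 1 of the 6 held a TCF/LEF match.

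The low-mt cells were the deeper part of their library. Their median was 3258 UMIs (quartiles 1905 and 4836) and 1829 genes per cell, against 1495 UMIs and 867 genes in the other ENR+CV cells and 1553 UMIs and 826 genes in the ENR cells. After cells were thinned to 900 UMIs without mt- genes, which left out 0, 36 and 313 shallower cells of the 3 groups, the median fell to 688, 666 and 634 genes, so most of the gap in detected genes went with depth. Shares of thinned cells given below are of the 659, 290 and 2232 cells that remained. The median number of mitochondrial UMIs per cell was 49 in the low-mt cells, 184.5 in the other ENR+CV cells and 251 in the ENR cells. The rule limits this number too, so it describes the choice. Sequencing had reached 10.7 reads per UMI in the low-mt cells, 8.38 in the other ENR+CV cells and 15.3 in the ENR cells. No cell barcode was shared between the low-mt cells and either of the other libraries (0 of 659).

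There was no gap in the distribution at 4%. The interval from 3.5 to 4% held 45 cells and the interval from 4 to 4.5% held 31, with Hes1 at 427 and 560 CPM. A low mitochondrial share was rare in conventional culture, where 37 of 2545 ENR cells (1.45%) lay under 4%, and intermediate in ENR+CD, with 319 of 2383 cells (13.4%).

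**Figure D1:**
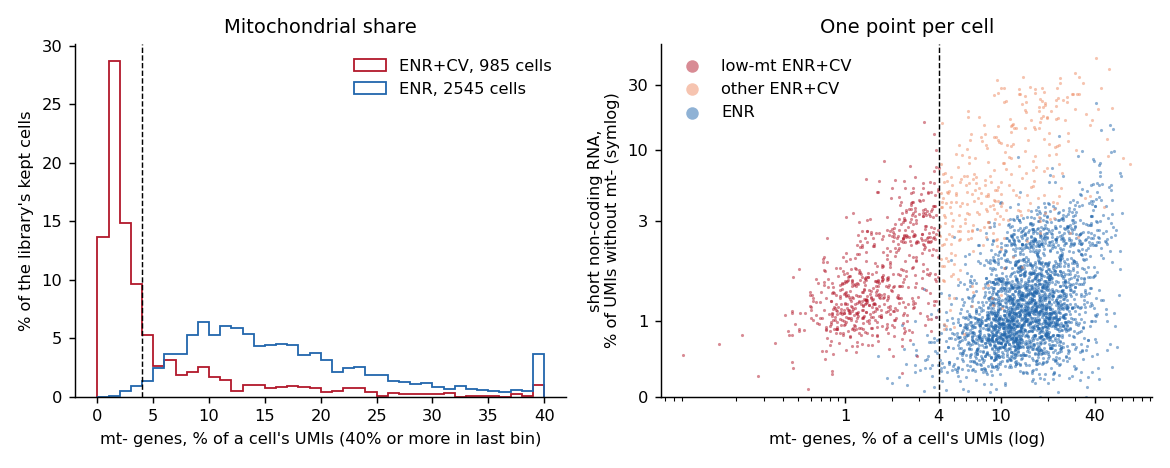
Left, the share of each library's kept cells (y axis, %) by the share of a cell's UMIs on mt- genes (x axis, %, bins of 1%, dashed line at 4%) for ENR+CV and ENR; right, one point per cell, the mitochondrial share (log axis) against the share of UMIs on short non-coding RNAs (symmetric log axis). ENR+CV cells pile up below 4% while only 37 ENR cells lie there, and within ENR+CV the short non-coding share is higher in cells of higher mitochondrial share.

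The markers named for these cells were 3 genes: Hes1 (chr16:30064384-30067796, plus strand), the Notch effector described above, Ass1 (chr2:31470207-31520672, plus strand), which makes argininosuccinate in the urea cycle and arginine synthesis, and Hist1h2af (chr13:23533906-23534304, plus strand), a replication-dependent H2A histone. Hes1 was at 695 CPM (661 to 730) in the low-mt cells, 614 CPM in the other ENR+CV cells and 166 CPM in the ENR cells. Ass1 was at 97.9 CPM (85.4 to 112) against 77.2 CPM and 17.9 CPM. Hist1h2af was at 24.8 CPM (18.7 to 32.2), from 56 UMIs, against 22.8 CPM and 12.2 CPM. Of its 56 UMIs, 46 lay in the mitotic sub-cluster 1 described below. All 3 markers were called higher than in ENR (4.18-, 5.48- and 2.03-fold). Hist1h2af was so only just, since edgeR's TMM scaling brought its log2 ratio to 0.83. None of the 3 was called between the low-mt and the other ENR+CV cells, where the ratios were 1.13 for Hes1 (95% interval 1.01 to 1.27), 1.27 for Ass1 (0.915 to 1.80) and 1.09 for Hist1h2af (0.588 to 2.17). Hes1 and Ass1 were thus higher than in ENR in both groups of ENR+CV cells, and the intervals of Ass1 and Hist1h2af between those groups included equality.

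The share of cells with a Hes1 UMI told the same at equal depth. Thinned to 900 UMIs, 37.2% of the low-mt cells had one, 37.9% of the other ENR+CV cells and 11.7% of the ENR cells. In ENR cells rich in the enteroendocrine granins Chga and Chgb, which should hold little Hes1, the share was 7.11%. Without thinning the shares were 63.3%, 50.3%, 19.7% and 15.04%, at median depths of 3258, 1495, 1553 and 1853.5 UMIs. For Hist1h2af the thinned shares were 1.67%, 0.690% and 0.851%, near the 0.474% of the granin-rich cells and too low to read an order from, with the other ENR+CV cells below ENR. A low mitochondrial share in the other libraries did not come with the ENR+CV levels of Hes1 and Ass1. The 37 ENR cells under 4% had Hes1 at 99.9 CPM (43.1 to 197) and Ass1 at 12.5 CPM, and the 319 such ENR+CD cells had Hes1 at 77.7 CPM and Ass1 at 8.27 CPM. Hist1h2af had 1 UMI in each of these sets, at 12.5 CPM (0.316 to 69.6) in ENR and 1.65 CPM (0.0419 to 9.22) in ENR+CD. Paneth antimicrobial genes took 31.0% and 34.5% of UMIs in those cells, against 0.665% in the low-mt ENR+CV cells.

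Against the other ENR+CV cells, most of the measured transcriptome was close to equal. Of 10261 genes tested, 89.4% were within 2-fold, 92 (0.897%) were called higher in the low-mt cells and 456 (4.44%) lower, with a median log2 ratio of 0.01 over all tested genes and 0.11 over the 5276 genes with at least 100 UMIs. Short non-coding RNAs, the small nuclear, nucleolar, ribosomal, 7SK, RNase P and microRNA genes, made up 181 of the 456 lower calls. Of 208 such genes tested, 181 were lower (87%) and 1 was higher (0.481%), with a median log2 ratio of -3.06. Without them, 91 genes were higher (0.905%) and 275 lower (2.74%).

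Short non-coding RNAs took 1.74% of UMIs in the low-mt cells, 7.64% in the other ENR+CV cells and 1.30% in the ENR cells. Parts of this class lay on both sides of ENR. Genes classed by name alone took 0.962%, 2.40% and 0.340%, and genes annotated as microRNAs 0.161%, 0.888% and 0.621%. Rn7sk, the RNA that holds the elongation factor P-TEFb inactive, was at 778 CPM in the low-mt cells, 8921 CPM in the other ENR+CV cells and 1200 CPM in ENR. Rpph1, the RNA subunit of RNase P, was at 1516, 8788 and 426 CPM. Both were thus lowest or intermediate in the low-mt cells and several-fold higher in the cells of the same library past 4%. Genes near-identical to one another share reads in such counts: 4 further 7SK-like genes were 75.7 to 89.2% identical to Rn7sk, so their separate values are uncertain.

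Gm23935 (chr16:11144125-11144181 on GRCm38, plus strand), annotated as a microRNA gene, is shown because it was abundant and rich in G and C. It was at 989 CPM in the low-mt cells, 7413 CPM in the other ENR+CV cells and 5085 CPM in ENR. Its 57 bases are 73.7% G and C, with the 2 longest runs of G and C letters, of 6 bases each, in capitals.
Gm23935: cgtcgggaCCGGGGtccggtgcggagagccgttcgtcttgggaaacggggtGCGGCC

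Long RNAs that stay in the nucleus were lower in the low-mt cells too, 4 of 6 tested. Malat1, a nuclear speckle RNA, was at 3061 CPM against 8086 CPM in the other ENR+CV cells and 4238 CPM in ENR. Neat1, the scaffold of paraspeckles, was at 70.0, 375 and 133 CPM, and Xist, which coats the inactive X chromosome, at 422, 1001 and 1195 CPM. Replication-dependent histone genes, whose mRNAs end without a poly(A) tail, summed to 1769 CPM against 3436 CPM in the other ENR+CV cells and 2319 CPM in ENR, and 22 of 50 tested were lower and 0 higher, with a median log2 ratio of -0.96. Replacement histones, which are polyadenylated, were not lower: 1 of 10 was higher and 0 lower, at 4313 against 3863 CPM.

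Genes for the mitochondrion encoded in the nucleus did not follow the mt- genes. Nuclear-encoded subunits of oxidative phosphorylation summed to 52688 CPM in the low-mt cells, 42497 CPM in the other ENR+CV cells and 45226 CPM in ENR, with 0 of 76 tested genes called either way against the other ENR+CV cells and a median log2 ratio of 0.32. Mitochondrial ribosomal proteins gave a median of 0.29 with 0 of 75 called, and the mitochondrial import and DNA maintenance genes 0.28 with 2 of 35 higher and 0 lower. Cytosolic ribosomal proteins gave 0.29 with 0 of 83 called, at 135420 CPM against 111540 CPM, so the mitochondrial lists lay where the other abundant mRNAs did. Among glycolytic genes 0 were higher and 3 of 20 lower, with a median of -0.40.

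Within the mt- genes, the composition of the small remaining share differed as well. The 2 ribosomal RNAs mt-Rnr2 and mt-Rnr1 took 58.8% and 17.3% of mitochondrial UMIs in the low-mt cells, 53.6% and 20.98% in the other ENR+CV cells and 71.8% and 7.42% in ENR. The cysteine tRNA gene mt-Tc took 1.02%, 0.256% and 0.00691%, from 411, 190 and 58 UMIs. These genes entered the rule through their sum, and the values are given as a description.

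Named mRNAs called higher than in the other ENR+CV cells were few. Olfm4, a secreted glycoprotein of crypt base columnar cells and a Notch target, was at 183 CPM (166 to 202) in the low-mt cells, 57.9 CPM in the other ENR+CV cells and 1023 CPM in ENR, so that it was 3.17-fold higher than in the former and lower than in the latter. Its higher call against the other ENR+CV cells was lost with a limit of 3% (log2 ratio 0.88). Uchl4 (66.4 against 15.8 CPM), Nup50, a nucleoporin (71.8 against 22.8 CPM), and Mat2b, the regulatory subunit of methionine adenosyltransferase (100.6 against 33.3 CPM), were among the largest ratios. Notch2, a receptor, was lower at 7.97 against 29.8 CPM, from 18 and 17 UMIs, and Ephb2, a Wnt-dependent receptor of the crypt base, was lower at 57.6 against 125 CPM.

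The largest ratios of all belonged to secretory genes and rested on few cells. Chgb, a granin of enteroendocrine cells, was at 104 CPM against 7.01 CPM, and the Paneth cell defensins Defa22 and Defa21 were at 100 against 15.8 CPM and at 167 against 31.6 CPM. The 10 richest cells held 93.6%, 95.1% and 98.7% of these UMIs. With a sub-cluster of 28 Paneth-like members left out, an alternative chosen after seeing the data, the log2 ratios were 0.15, -1.10 and -2.93, and Defa21 was then lower. The defensin genes are near-identical copies, so the division of reads among them is uncertain.

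**Figure D2:**
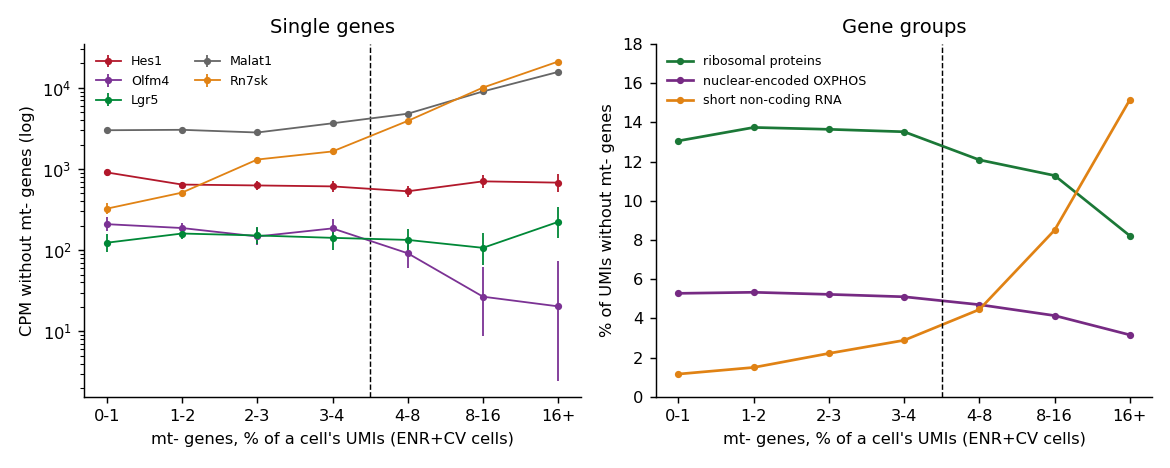
Levels across 7 bins of mitochondrial share in the ENR+CV cells (x axis, %, dashed line at 4%): left, CPM without mt- genes on a log axis with exact Poisson 95% intervals; right, percent of UMIs without mt- genes taken by 3 gene groups. Rn7sk and short non-coding RNA climb across the bins without a step at 4%, while Hes1 stays between 531 and 908 CPM.

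The differences in Rn7sk and short non-coding RNA ran gradually along the mitochondrial share rather than changing at 4%. Over bins of 0 to 1, 1 to 2, 2 to 3, 3 to 4, 4 to 8, 8 to 16 and at least 16%, which held 135, 283, 146, 95, 127, 109 and 90 cells, Rn7sk was at 324, 512, 1309, 1646, 3916, 10087 and 21121 CPM. Malat1 stayed between 2818 and 3660 CPM within the 4 low-mt bins and was at 4803, 9036 and 15740 CPM past them. Short non-coding RNA took 1.16% of UMIs in the lowest bin and 15.2% in the highest, a gradient that was already present inside the low-mt cells, whose top bin stood at 2.88%. Hes1 was at 908 CPM (826 to 995) in the lowest bin and between 531 and 705 CPM in the other 6, where most intervals overlapped. Olfm4 was at 209, 187, 147 and 185 CPM within the low-mt bins and at 91.5, 26.7 and 20.3 CPM past them, the last from 2 UMIs. Lgr5, the receptor of R-spondin that defines crypt base columnar cells, stayed between 107 and 223 CPM with no direction across the bins. Ribosomal proteins took 13.1 to 13.7% within the low-mt bins and 12.1, 11.3 and 8.21% past them. Depth fell along the same axis, from a median of 3680 UMIs per cell in the lowest bin to 1351.5 in the highest, and its part in these gradients was not tested. Keeping only cells with at least 1000 and under 3000 UMIs without mt- genes left 298 low-mt and 199 other ENR+CV cells. Lower calls were then 241 of 7047 genes tested (3.42%) in place of 456 of 10261 (4.44%). That count compares 2 groups with fewer cells and does not follow the bins, so it cannot give the part of depth.

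Against the ENR cells, the low-mt ENR+CV cells differed far more. Of 11667 genes tested, 1076 (9.22%) were higher and 924 (7.92%) lower, and without short non-coding RNAs 1019 (8.87%) and 888 (7.73%), with a median log2 ratio of 0.11 over all tested genes, which sets the zero for the lists below. TMM scaling moved that median to -0.08 and the split of calls from 53.8% to 39.2% higher. The 37 ENR cells under 4% held 80051 UMIs without mt- genes. Against them, 801 of 9669 genes tested were higher (8.28%) and 195 lower (2.02%). Since ENR, ENR+CV and ENR+CD were 1 library each, the values describe these libraries.

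**Figure D3:**
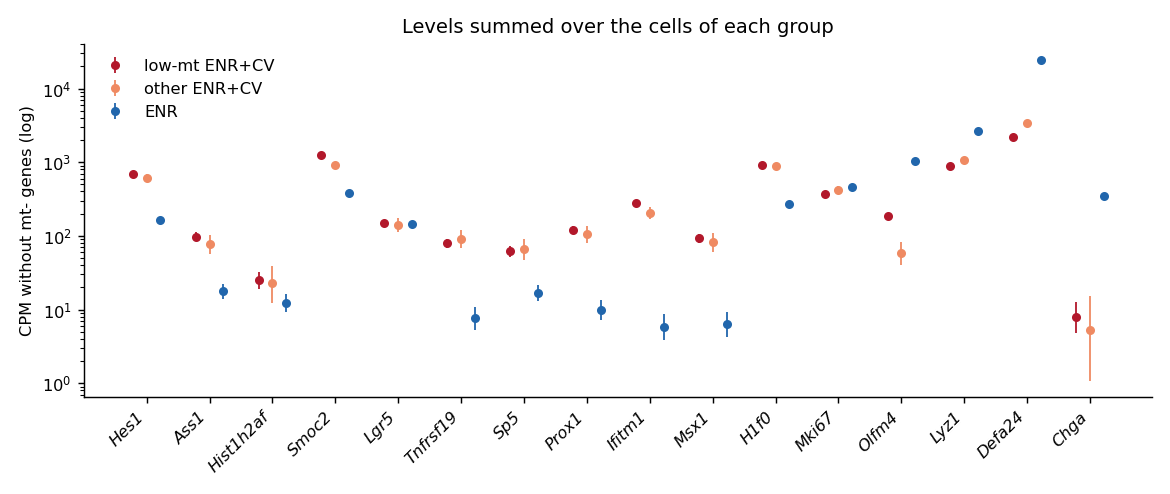
CPM without mt- genes (log axis) of 16 genes summed over the low-mt ENR+CV, other ENR+CV and ENR cells, with exact Poisson 95% intervals. Points of the 2 ENR+CV groups sit together for Hes1, Ass1, Lgr5 and Prox1 and apart for Olfm4, while ENR is lower for Ifitm1 and Msx1 and higher for Olfm4, Defa24 and Chga.

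Notch pathway genes held calls both ways. Of 8 Notch targets tested, 2 were higher, 1 lower and 5 not called, with a median of 0.46. Besides Hes1, the Fringe glycosyltransferase Lfng was higher, at 45.6 against 22.6 CPM, a call that TMM scaling lost. Olfm4 was the lower one, at 183 against 1023 CPM. Hes5 and Hey1, 2 other classical targets, had 3 and 1 UMIs, and Nrarp, a feedback inhibitor, was at 17.7 against 14.1 CPM. Of the ligands and receptors, 0 of 6 tested were called: Notch1 was at 32.3 against 35.0 CPM, Dll1 at 18.6 against 27.7 CPM and Jag1 at 7.97 against 10.6 CPM. Hes1 and Olfm4 thus lay on opposite sides of ENR in the same cells.

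Of 21 Wnt targets tested, 7 were higher and 1 lower, with a median of 0.48, close to that of the Notch targets. The difference between the lists was not tested. Tnfrsf19 (Troy), a receptor of crypt base cells, was at 79.3 against 7.75 CPM, a 10.2-fold difference, and Nkd1, a feedback inhibitor of Dishevelled, at 33.7 against 2.35 CPM. Lef1, a DNA-binding partner of beta-catenin, had 47 UMIs (20.8 CPM) against 1 UMI in ENR, a ratio with a counting interval of 15.1 to 3573. Sp5, a zinc finger factor whose promoter is shown above, was 3.67-fold higher and Rnf43, a ligase that removes Wnt receptors, 2.34-fold higher. Other members of the list were not called. Axin2, at 267 against 142 CPM, was above ENR but short of the 2-fold limit. Myc was at 95.2 against 122 CPM and Ccnd1 at 168 against 180 CPM. Against the 37 ENR cells under 4%, the calls of Nkd1, Sp5, Lef1 and Rnf43 were lost. Those cells held 0 UMIs of Nkd1 and Lef1, so their log2 ratios of at least -0.15 and -0.85, taken against a floor of 3 UMIs, give no direction.

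Stem cell genes did not move as one. Of 26 tested, 5 were higher, 2 lower and 19 not called, with a median of 0.42. Smoc2, a matricellular protein of crypt base cells, was at 1258 CPM against 383 CPM (3.28-fold), Mex3a, an RNA-binding protein of slowly cycling Lgr5 cells, at 73.5 against 16.5 CPM and Soat1 was 2.39-fold higher. Lgr5 was at 148 CPM (133 to 165) against 144 CPM, Ascl2, its transcriptional regulator, at 70.0 against 66.0 CPM and Sox9 at 228 against 184 CPM. The 2 lower genes were Olfm4 and Gkn3, a gastrokine, at 7.97 against 49.6 CPM. At 900 UMIs, 11.7% of the low-mt cells and 11.2% of the ENR cells had an Lgr5 UMI, above the 8.53% of granin-rich ENR cells by less than the width of their intervals.

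Cell cycle genes were near the background. Of 40 S-phase genes 1 was higher and 0 lower, and of 48 genes of G2 and mitosis 0 were higher and 2 lower, with medians of -0.04 and -0.02. Mki67, present in cycling cells, was at 370 CPM (345 to 396) against 460 CPM and Top2a at 511 against 445 CPM. Thinned to 900 UMIs, 23.8% of the low-mt cells had a Mki67 UMI, 26.9% of the other ENR+CV cells and 27.96% of the ENR cells. Of 15 cell cycle inhibitors tested 3 were higher and 2 lower: the anti-proliferative Btg1 was at 182 against 61.3 CPM, and Cdkn1a at 208 against 166 CPM was not called.

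Genes of differentiated cells were mostly lower. Of 33 Paneth antimicrobial genes tested, 30 were lower and 2 higher, with a median of -3.86, and the list summed to 6651 CPM against 53856 CPM. Defa24, an abundant defensin, was at 2211 against 24220 CPM and Lyz1, lysozyme, at 888 against 2622 CPM. Thinned to 900 UMIs, 28.2% of the low-mt cells and 86.2% of the ENR cells had a Defa24 UMI. So did 90.5% of the granin-rich ENR cells and 69.0% of 42 ENR cells rich in Fabp1, Apoa1 and Apoa4. Defa24 UMIs in ENR were thus also found in cells rich in genes of other lineages, and their source there was not tested. All 15 goblet cell genes tested were lower (median -3.78): Muc2, the main mucin, had 1 UMI against 278, and Tff3, a trefoil peptide, was at 303 against 2504 CPM. Of 26 enteroendocrine genes 18 were lower and 0 higher (median -2.56), and the hormone genes Gip, Sst and Nts had 0 UMIs, which made Gip at least 541-fold and Nts at least 116-fold lower against a floor of 3 UMIs. Gcg had 1 and Cck 2 UMIs against 1990 and 3083. Enterocyte genes were lower in 15 of 23 and higher in 0 (median -2.31), with the fatty-acid carrier Fabp2 at 250 against 1280 CPM. Fabp1, its close relative, was not called at 890 against 927 CPM, and 500 of its 2010 UMIs in the low-mt cells came from 1 cell.

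Transcription factors of secretory commitment gave a mixed account at low counts. Atoh1 was lower at 3.54 against 12.7 CPM, from 8 and 54 UMIs, and Spdef, its goblet and Paneth effector, at 3.99 against 18.8 CPM. Neurog3, the enteroendocrine determinant, was at 31.0 against 23.0 CPM and not called, with most of its 70 UMIs in the Paneth-like sub-cluster described below (65). Sox4 was higher at 449 against 210 CPM, a call that TMM scaling lost (log2 ratio 0.90).

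The widest higher ratios lay outside these lists. Ifitm1, an interferon-induced membrane protein found in intestinal progenitors, was at 283 CPM (262 to 306) against 5.88 CPM, a 48.3-fold difference (32.4 to 75.1), and was detected in 268 of the 659 cells. Neb, which encodes the muscle filament protein nebulin, was at 82.4 against 0.940 CPM, from 186 and 4 UMIs. Msx1, a homeobox factor, was 14.7-fold and Prox1, another homeobox factor, 12.1-fold higher. Itm2a and Crip2 followed at 30.8- and 26.2-fold. These ratios came from low ENR levels of at most 9.87 CPM, and in the other ENR+CV cells Ifitm1, Msx1 and Prox1 stood at 205, 82.4 and 105 CPM, none of them called against the low-mt cells.

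Among chromatin and translation genes, 14 of 59 replication-dependent histones were lower and 2 higher (median -0.66), and ribosomal proteins were called both ways. H1f0, the replacement linker histone known to respond to histone deacetylase inhibitors, was at 904 against 274 CPM (3.29-fold). Of 27 histone deacetylases and acetyltransferases 2 were higher and 1 lower (median 0.08): Hdac1 was 2.29-fold and Hdac3 2.02-fold higher, both lost with TMM scaling. Over all genes tested against ENR, 9.22% were higher and 7.92% lower, and neither count for this list exceeded that share. Of 84 ribosomal protein genes 8 were higher and 16 lower (median -0.20), with Rpl41 at 7591 against 1162 CPM and Rps19 at 7207 against 3517 CPM. Pabpc1, the poly(A)-binding protein, was 3.03-fold higher. Ribosomal protein genes have many processed copies that can share reads, so the values of single genes of this family are uncertain. In the arginine list, 2 of 15 genes tested were higher and 1 lower (median -0.28): Ass1 and its next enzyme Asl (66.4 against 31.0 CPM, lost with TMM scaling) were higher, while Cps1 (629 against 762.3 CPM) and Otc (136 against 264 CPM), the earlier mitochondrial steps, were not called.

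Genes induced during tissue dissociation were higher in 8 of 23 and lower in 1 (median 0.77), with Egr1 at 835 against 260 CPM and Ier2 at 1094 against 530 CPM. In the other ENR+CV cells they were at 959 and 1017 CPM. These are values of 1 dissociation per library, and their part in the other differences was not tested. Markers of other cell types were low: the 16 immune genes in the table summed to 97.0 CPM in the low-mt cells, 80.7 CPM in the other ENR+CV cells and 112 CPM in ENR, and the T cell and macrophage markers Cd3e, Cd3d, Csf1r and Tyrobp had 0 UMIs in the low-mt cells. The 14 stromal and endothelial genes summed to 273, 258 and 66.5 CPM, nearly all of it Vim (260 CPM in the low-mt cells), while Cdh5 and Sparc had 0 UMIs and Col1a1 5. The class II gene H2-Ab1 was at 48.7 against 3.76 CPM with H2-Aa at 0 and Cd74 at 1 UMI. Epcam, which marks epithelium, was at 1842 CPM and detected in 97.4% of the low-mt cells, so the epithelial label held.

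Several short RNAs were almost absent from ENR. The gene mmu-mir-6236 was at 127 CPM in the low-mt cells (287 UMIs), 854 CPM in the other ENR+CV cells and 1.41 CPM in ENR (6 UMIs). Its mature product in RefSeq, at chr9:110281353-110281371 on the plus strand of GRCm38.p6, is shown with the seed, bases 2 to 8, in capitals.
mmu-miR-6236: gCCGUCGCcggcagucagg
The 5.8S ribosomal RNA copy n-R5-8s1 had 297 UMIs in the low-mt cells and 0 in ENR, at least 187-fold higher against the floor of 3 UMIs, and the rRNA gene Gm24601 had 224 and 0, at least 141-fold. Of 174 short non-coding genes tested against ENR, 57 were higher (32.8%) and 36 lower (20.7%). These values mark a difference between libraries that was larger still in the ENR+CV cells past 4%.

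**Figure D4:**
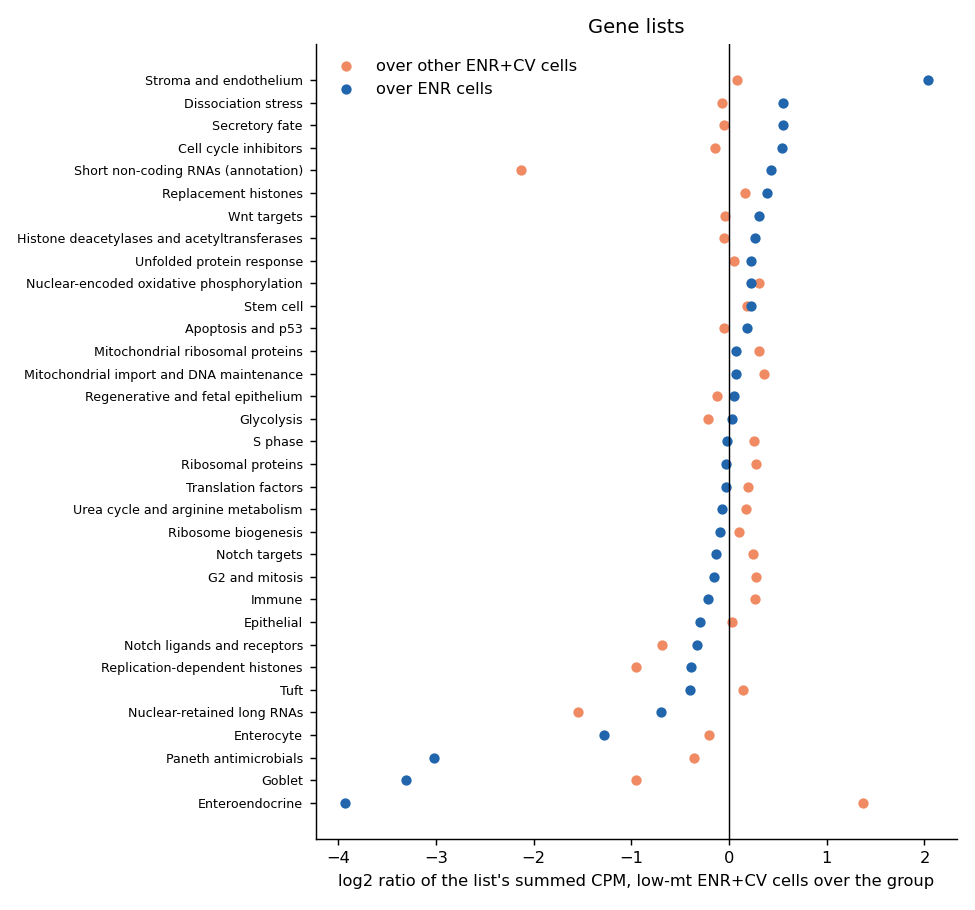
Log2 ratio of the summed CPM of each gene list in the low-mt ENR+CV cells over the other ENR+CV cells (orange) and over the ENR cells (blue). Differentiated lists sit far to the left against ENR only, and short non-coding RNAs, nuclear-retained RNAs and replication-dependent histones sit to the left against the other ENR+CV cells; the enteroendocrine point to the right rests on the Paneth-like members.

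The values in ENR+CD, which shares CHIR99021 but not valproic acid, divided the genes above. Ifitm1 was at 921 CPM there, Neb at 139, Prox1 at 205, Nkd1 at 144, Tnfrsf19 at 74.6 and Lef1 at 30.2, all near or above the low-mt ENR+CV level. Hes1 was at 103 CPM, Ass1 at 7.72, Smoc2 at 383 and H1f0 at 274, all nearer to ENR. Because DAPT blocks Notch cleavage, ENR+CD differs from ENR+CV in 2 agents, and the values cannot assign a gene to one of them.

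The low-mt cells were not uniform. Leiden clustering of their counts without mt- genes gave 5 sub-clusters, whose leading genes define them and are given as a description. Cluster 1 (216 cells, 32.8%) was led by the mitotic genes Nusap1, Prc1, Top2a and Ube2c, and genes of G2 and mitosis took 1.08% of its UMIs against 0.206 to 0.586% in the others. Cluster 2 (214 cells) had the lowest median depth, 2345.5 UMIs, and Olfm4 among its leading genes at 322 CPM, detected in 62 cells. Cluster 3 (115 cells) was led by Agr3, Prox1, Ifitm1, Neb and Nkd1, with Ifitm1 at 587 CPM against 201 CPM in the other members and Hes1 at 1017 CPM.

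The 2 smallest groups carried differentiated genes. Cluster 4 (86 cells, Enterocyte-like) was led by Fabp1, Alpi, intestinal alkaline phosphatase, Gsta1, Ces2a and Reg1, with Alpi detected in 14 cells. Its short non-coding share was 3.49% against 1.48 to 1.86% elsewhere, and its median mitochondrial share was 2.69% against 1.23 to 1.61%. The enterocyte list took 1.01% of its summed UMIs but a median of 0.226% per cell, against 0.130 to 0.155% in clusters 1 to 3, and 500 of its 1524 Fabp1 UMIs came from 1 cell. The name thus rests on a minority of its cells. Cluster 5 (28 cells, Paneth-like) was led by Defa17, Defa21, Gm15284 and Chgb, and Paneth antimicrobial genes took 12.3% of its UMIs against 0.196 to 0.249% in clusters 1 to 4. That share was carried by few cells, with a median of 2.06% per cell. Defa21 was detected in 6 cells, 353 of its 368 UMIs came from 1 cell, and so did 578 of the 691 UMIs of Gm15284. Goblet genes took 2.05% and enteroendocrine genes 0.702% of cluster 5, Neurog3 among its leading genes in 7 cells. Hes1 had its lowest value there, at 322 CPM (210 to 472) from 26 UMIs, an interval that overlapped that of cluster 4 (358 to 522). Lgr5 was at 24.8 CPM in cluster 5, from 2 UMIs. The same 28 cells formed the Paneth-like group at a resolution of 1, which gave 9 clusters, and with cell cycle and histone genes left out, whereas the Enterocyte-like name was not stable. It went to 20 cells at resolution 1, 18 of them from cluster 4, and to 119 cells without the cell cycle and histone genes, 54 of them from cluster 1, and under these settings 65 and 62 cells of cluster 4 fell in unnamed groups.

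**Figure D5:**
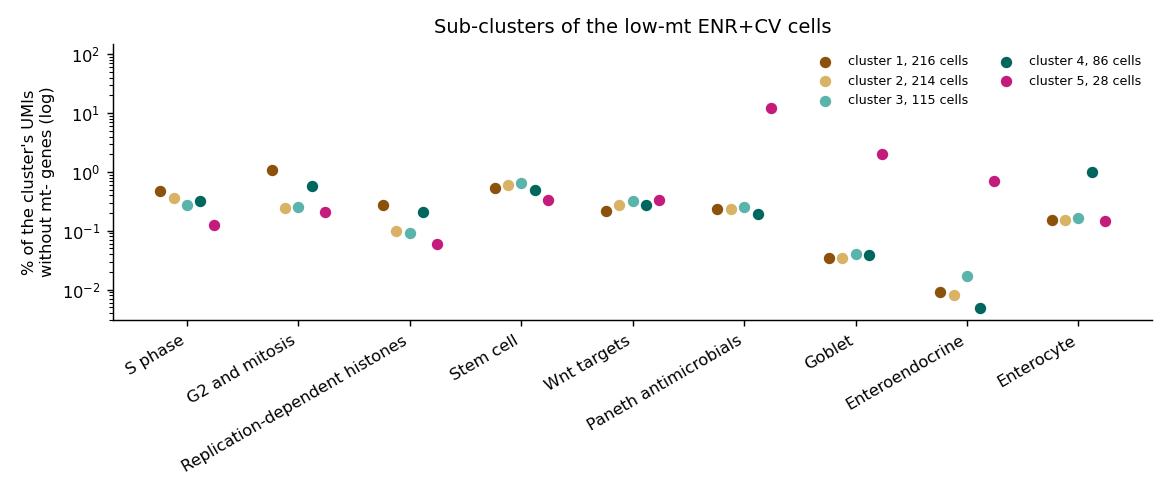
Percent of UMIs without mt- genes (log axis) taken by 9 gene lists in each of the 5 sub-clusters of the low-mt ENR+CV cells. Cluster 5 stands apart on the Paneth, goblet and enteroendocrine lists, cluster 4 on the enterocyte list at 1.01%, a sum carried by few cells, and cluster 1 on the G2 and mitosis list at 1.08%.

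Lists differed in how they were spread over single cells. The Paneth list took a median of 0.158% of a low-mt cell's UMIs and 58.8% in the richest cell, with 13 cells at 5% or more. The enterocyte list took a median of 0.145% and 16.3% in the richest cell, and the G2 and mitosis list a median of 0.359% (quartiles 0.159 and 0.897%). The stem cell list took a median of 0.546% (quartiles 0.403 and 0.701%, highest 1.58%) and the Notch target list 0.121% (0.0648 and 0.192%). Nuclear-encoded oxidative phosphorylation took 5.28% (4.75 and 5.86%). No doublet caller was run, and the limit of 8000 UMIs was the only filter on very deep cells.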

How the data were processed

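The deposited values were whole-number UMI counts per gene and cell; the authors' reads were processed with tools that the submitters' processing notes list as bcl2fastq, STAR and Seurat on mm10, with annotation and versions not given in the sources used here. Cells came from the merged table (23271 genes, 0 columns left unused as belonging to no sample), with media read from its column names although the ENR+CV and ENR+CD per-library tables carry exchanged labels.

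Counts were summed per group, mt- genes were removed from the totals, and CPM, exact Poisson intervals and exact binomial intervals of ratios and shares (95%) were computed with SciPy 1.17.1. Sub-clusters were made with scanpy 1.11.5 and igraph 0.11.9. TMM factors came from edgeR 4.0.16 in R 4.3.3. Gene classes were taken from GENCODE M21, which matched 93.5% of symbols, and promoters and microRNAs from RefSeq GRCm38.p6. The short non-coding RNAs also took in 114 symbols without a match, classed by their names. No test across samples was possible with 1 library per medium. Members, gene lists and comparisons were chosen with earlier results of these data known. Genes were named as the markers, the 4 most abundant members of each list, the 12 largest ratios each way among called genes with at least 100 UMIs, the 5 leading genes of each sub-cluster and genes the study names; further list members were named after their values were seen, and some items that the rule names are not reported here. On simulated counts with 4-fold changes, 100 of 100 higher and 100 of 100 lower genes were recovered against the other ENR+CV cells (22 false calls among 10243 genes) and against ENR (12 among 11647). Those counts held counting error only, and the changes were set in genes with at least 100 UMIs in the pair. The simulation therefore shows nothing about spread between cells, or about recovery of smaller changes or of genes with fewer UMIs. Alternatives covered the mitochondrial limit, totals, scaling, minimum UMIs, depth, cells left out and clustering.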

Additional observations from a re-analysis of the deposited data

Results flagged for a closer look

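Barcodes outside the depth limits were not used in any comparison above. Of the 1393 ENR+CV barcodes with at least 300 and under 1000 UMIs, 23.0% (20.8 to 25.3%) lay under 4% mitochondrial UMIs, against 66.9% of the kept ENR+CV cells and 0.936% of 3311 such ENR barcodes. In those 320 ENR+CV barcodes Hes1 was at 796 CPM (674 to 934), against 645 CPM in the 1073 ENR+CV barcodes past 4% and 178 CPM in the ENR barcodes. Short non-coding RNA took 1.58%, 8.19% and 1.35% of UMIs in the same 3 sets. Olfm4, higher in the low-mt than in the other kept ENR+CV cells, did not differ clearly in these barcodes. It was at 127 CPM (81.1 to 188) under 4% and 113 CPM (84.3 to 148) past 4%, with overlapping intervals.

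Of the ENR+CV cells with 8000 or more UMIs, 97 lay under 4% and 4 did not (96.0%, 90.2 to 98.9%), against 6.10% of 82 ENR cells of that depth. Hes1 was at 768 CPM (717 to 822) in those 97 cells and at 162 CPM in the 82 ENR cells, with short non-coding RNA at 1.72% and 1.07%. Lyz1 was at 2964 CPM in the 97 cells, above the 888 CPM of the low-mt ENR+CV cells. These are cells of the same libraries and are not replicates, and the cause of the values was not tested.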

How the results depend on the processing

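No paired analysis was possible because each medium was represented by 1 library. Shares in parentheses are of the genes tested under each setting. Against the other ENR+CV cells, the 92 higher genes (0.897% of 10261) became 54 (0.526%) with a limit of 3% and 139 (1.35%) with 5%. They became 175 (1.71%) with mt- genes in the totals and 60 (0.597% of 10053) without short non-coding RNAs in the totals. With at least 100 UMIs in the pair they were 57 (1.08% of 5276). The 456 lower genes (4.44%) became 122 (2.31% of 5276) with at least 100 UMIs. In cells of 1000 to under 3000 UMIs they were 241 (3.42% of 7047). Against ENR, the 1076 higher genes (9.22% of 11667) became 1737 (14.9%) with mt- genes in the totals. With at least 100 UMIs they were 580 (7.19% of 8064). The 924 lower genes (7.92%) became 547 (6.78%) with at least 100 UMIs. They were 568 (5.54% of 10252) in cells of 1000 to under 3000 UMIs and 195 (2.02% of 9669) against ENR cells under 4%. The share of calls that were higher moved from 16.8% to 33.3% with mt- genes in the totals against the other ENR+CV cells, and against ENR from 53.8% to 39.2% with TMM, 40.7% with median-of-ratios factors and 71.5% with mt- genes in the totals. The members were 57.3% of the kept ENR+CV cells with a limit of 3% and 72.2% with 5%, and resolution 1 gave 9 sub-clusters in place of 5. Of 979 alternative values for single genes, 861 were counted as unchanged. For called genes this meant the same call, and for genes not called a ratio within the counting interval of the reported one, whatever its sign. Another 7 reversed, a label that only called genes could receive. Of 351 alternative values for the summed level of a list, 163 lay within the counting interval of the reported value, 188 moved out of it and 31 crossed a ratio of 1. Over the other ENR+CV cells, the Paneth list went from 0.779 to 2.41 with a limit of 5% and to 3.07 in cells of 1000 to under 3000 UMIs, and the enteroendocrine list from 2.58 to 0.745 without the Paneth-like members. Over ENR, nuclear-retained long RNAs went from 0.619 to 1.70 and replication-dependent histones from 0.763 to 1.48 against ENR cells under 4%. The reversed log2 ratios were, over the other ENR+CV cells, Tff3 at 0.21 in cells of 1000 to under 3000 UMIs, Defa21 at -1.44 with members of 5000 or more UMIs left out, and Defa22 at -1.10, Defa21 at -2.93 and Sct at -0.43 without the Paneth-like members, and over ENR, Xist at 0.17 against ENR cells under 4% and Itln1 at 0.71 without cells with 5% or more on the 4 differentiated lists. Leaving out the Paneth-like members and the cells rich in the 4 lists was chosen after seeing the data, and the cause of the reversals was not tested beyond which cells entered. Against the ENR cells under 4%, which held 0 UMIs of either gene, the ratios of Nkd1 (-0.15) and Lef1 (-0.85) are bounds against a floor of 3 UMIs and were counted as lost calls, not as reversals, a rule set after seeing the values. No alternative that dropped a library was possible, and depth limits genes with under 20 UMIs in a pair.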
